A study of Arabidopsis thaliana with 4 samples.

Results

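The stretch described here is a low block of 15 consecutive plates, TA37 to TA51, in a tiling-array profile of H3K36me3, histone H3 trimethylated at lysine 36, from Arabidopsis thaliana seedlings. Its members are the probes of plate set TA with a plate number from 37 to 51 and a value on all 4 arrays: 1338 of the 21685 probes with a value, or 6.17% of them. The plates were picked because earlier summaries of the same log ratios showed few high probes on them, so every ratio below describes the choice and none is a test of it. The few islands of high ratio, and plates TA41 and TA48, which interrupt the block, were kept as members.

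All seedlings were of the Col-0 accession and untreated, and the labels give an age of 10 days. Growth was in liquid 0.5X Murashige and Skoog medium at 22 degrees C with a 16-hour day. DNA immunoprecipitated with a commercial antibody to H3K36me3 (ChIP) was co-hybridised with input DNA, the same chromatin without immunoprecipitation. The 2 extract pairs, called replicates 1 and 2, were each put on 2 arrays with the dyes Cy5 and Cy3 exchanged. Whole seedlings were used, so each value averages over all their cell types. The labels do not say whether the pairs came from separate cultures, and the spread between replicates may be technical.

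In plants, H3K36me3 is set largely by the methyltransferase SDG8 and is known from the bodies of transcribed genes, where proteins of the MRG family read it. Demethylases such as JMJ30 remove it. Chromatin that is rich in silenced transposons, such as that around Arabidopsis centromeres, is known to carry little of it. No table used here pairs a probe identifier with a gene, a position or a sequence, so no gene, transposon or chromosome region is named for any member, and no sequence is shown.

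A probe is named by its plate and its well, from A01 to H12, and the order used here runs by plate, row and column. Values are the deposited log ratios minus the median of all probes of that replicate. The sources used here are the labels and the table itself. The base of the logarithm and the direction of the ratio (ChIP over input or input over ChIP) are not stated in those sources. High and low therefore refer to the ratio as deposited, sizes are in its own units, and every high and low changes places for the mark if input is the numerator. The arrays with exchanged dyes carry the same number at each of the 21685 probes, so a pair of arrays counts as 1 replicate (n = 2) and dye effects could not be seen. With 2 replicates an exact two-sided test over samples cannot give a p below 0.5. The number of arrays limits the precision.

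Almost the whole stretch lay below the array median. Its mean ratio was -0.51 ± 0.19 (SD, n = 2), with -0.65 in replicate 1 and -0.38 in replicate 2. All other probes averaged 0.49 in replicate 1 and 0.44 in replicate 2. Both replicates put the stretch lower: the difference, stretch minus other probes, was -1.14 in replicate 1 and -0.82 in replicate 2, with a mean of -0.98. Of the members, 1211 (90.5%) were below 0 in both replicates, against 42.4% of all other probes. The middle 50% of member means lay between -0.75 and -0.42, against -0.37 and 1.30 for all other probes.

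**Figure D1:**
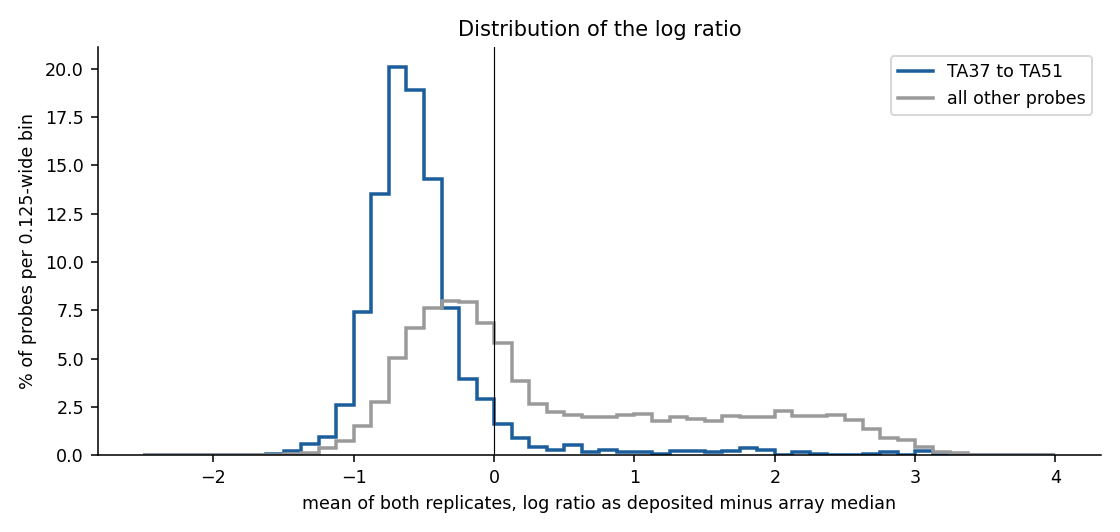
Percentage of probes per 0.125-wide bin of the log ratio (mean of both replicates, minus the array median) for the 1338 probes of TA37 to TA51 (blue) and the 20347 other probes (grey). The stretch forms a narrow peak with a median of -0.60 and a thin tail to 3.04, while the other probes have a median of 0.05 and a broad upper shoulder.

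All probes were split into populations by the mean of both replicates, using 2 normal curves of which the lower is centred at -0.31 and the upper at 1.58. The upper population (posterior above 0.99) begins at 0.98. The lower population, set at a posterior of at least 0.5 for the lower curve, ends at 0.46. Probes in neither are more likely upper than lower, but do not reach 0.99. In the stretch, 32 probes (2.39%) belonged to the upper population, 1291 (96.5%) to the lower and 15 (1.12%) to neither. Over all probes the upper population held 28.3% and the lower population 63.8%. Against the array median, 1118 members (83.6%) were called below and 53 (3.96%) above (limma, Benjamini-Hochberg adjusted over all probes, threshold 0.05), beside 32.3% and 38.9% of all probes. The remaining 167 members (12.5%) did not pass. Since the plates were chosen on the same ratios, nothing is read from these counts.

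Members also occurred among the lowest probes of the series. They made up 60 of the 344 probes in the series with a mean under -1 (17.4%) and 12 of the 63 under -1.25 (19.0%), beside 6.17% of all probes. The plates were chosen on these ratios, so nothing is read from the shares. The lowest member was TA44E03, with -1.56 in replicate 1 and -1.44 in replicate 2, which ranked 14th from the bottom of all probes. Its neighbours had means of -0.85 and -1.01. The next lowest was TA38B10, with -1.44 in replicate 1 and -1.51 in replicate 2, between neighbours at -0.61 and -0.66. Both stood below wells that were themselves low.

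Every plate of the stretch had a mean under 0 in both replicates. In replicate 1 the plate means ran from -0.79 to -0.23 with a median of -0.68, and in replicate 2 from -0.51 to -0.16 with a median of -0.39. The nearest 16 plates outside, TA30 to TA36 and TA52 to TA60, ran from -0.44 to 0.94 in replicate 1 and from -0.36 to 0.79 in replicate 2. The ranges overlap. TA57 (-0.44 in replicate 1 and -0.36 in replicate 2), TA58 (-0.34 and -0.32) and TA59 (-0.34 and -0.22) were lower than TA48 (-0.23 and -0.16) in both replicates, and lower than TA41 (-0.17) in replicate 2. Plates TA40, TA43, TA44, TA45, TA49, TA50 and TA38 held no upper probe. The most even was TA43, where the SD over its 96 probes was 0.21 and 91 probes were called below. The least even was TA41, with an SD of 0.88 over 95 probes.

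Plates without an upper probe still differed a little in level. TA40 averaged -0.79 in replicate 1 and -0.45 in replicate 2, with 83 of its 96 probes called below. TA44 averaged -0.73 and -0.44, and TA45 averaged -0.73 and -0.49. Towards the end of the stretch, TA49 averaged -0.64 and -0.43 and TA50 averaged -0.70 and -0.51. These plates kept no common order between replicates: TA43 was among the lowest in replicate 1, at -0.79, and above TA40, TA44, TA45, TA49 and TA50 in replicate 2, at -0.39. Within single plates of the stretch, Pearson r between replicates ran from 0.550 on TA49 to 0.956 on TA48. On the 16 nearest plates outside it ran from 0.897 to 0.982. The SD over probes, on which r depends, ran from 0.21 to 0.88 on plates of the stretch and from 0.52 to 1.29 outside.

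**Figure D2:**
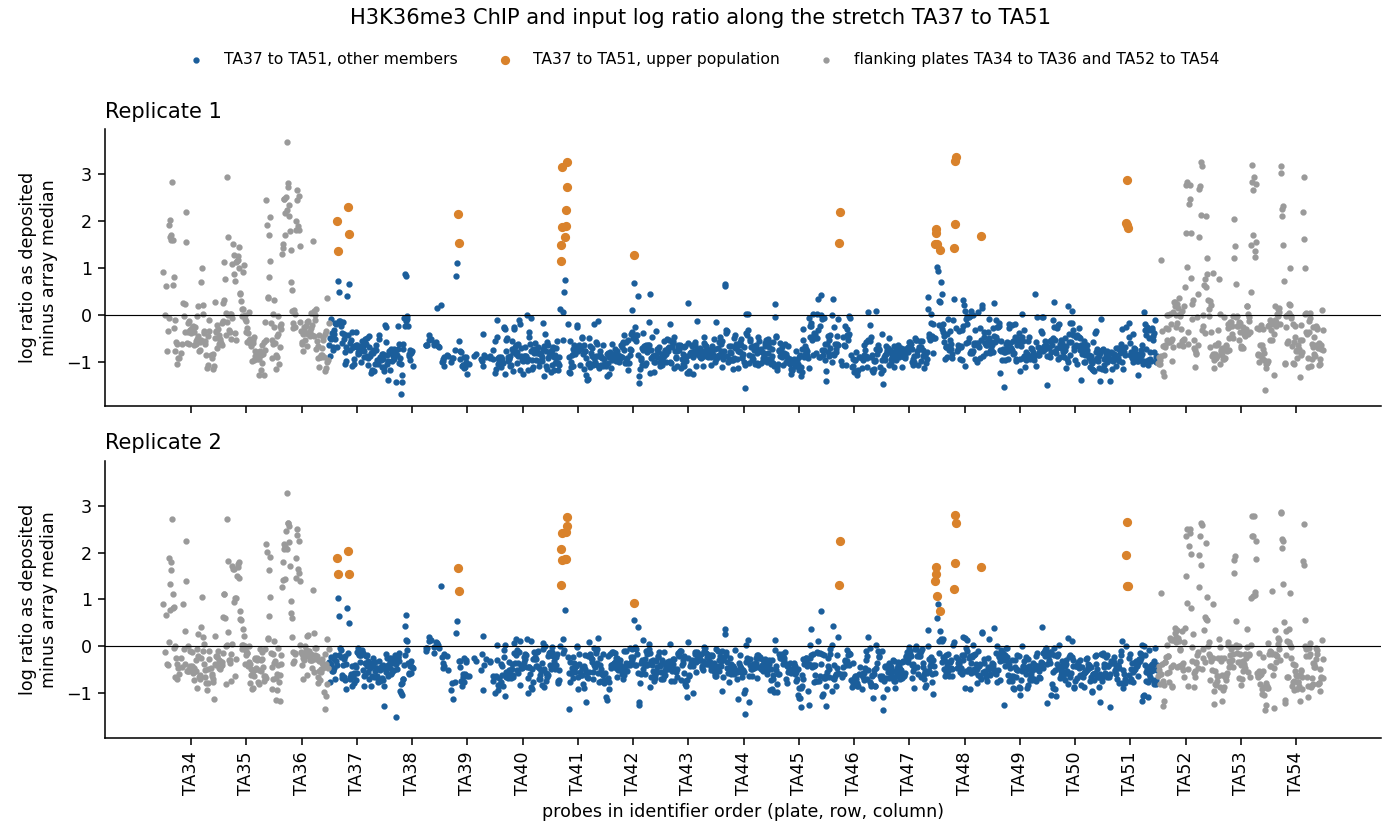
Log ratio minus the array median (y axis, units of the deposited log ratio) at each probe in identifier order from TA34 to TA54, with replicate 1 above and replicate 2 below. Members outside the upper population are blue, the 32 upper members orange and flanking plates grey. The low band is broken by short orange columns on TA37, TA39, TA41, TA42, TA46, TA47, TA48 and TA51. Orange wells were chosen by the mean of both replicates, and TA42E03 and TA48A07 lie under 0.98 in replicate 2.

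The change of level did not fall at the plate edges that bound the stretch. The first member, TA37A01, had -0.63 in replicate 1 and -0.35 in replicate 2, and the last, TA51H12, had -0.87 and -0.41. Just outside, TA36H12 had -0.17 and -0.06, and TA52A01 had -1.04 and -0.65. The first 24 members averaged -0.14, raised by 2 upper probes, while the 24 probes before them averaged -0.55 with no upper probe. The last 24 members averaged -0.55, and the 24 probes after them -0.49 with 1 upper probe. The last upper probe before the stretch, TA36F09, stood 28 probes before its first member, and the first after it, TA52A07, 7 probes past its last member. Low wells thus continued past both ends.

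The upper members were gathered in a few short islands. Of the 32, 29 lay in 9 islands of 2 or more consecutive wells and 3 stood alone. That is 0.67 islands per 100 probes, against 5.63 per 100 on the other plates of set TA. The longest held 5 wells, where the longest on the other plates of set TA held 16, among far more islands. With single wells counted as islands, the 12 in the stretch averaged 2.67 wells. The 582 on the other plates of set TA averaged 3.30. Their height was not low: upper members averaged 1.89 ± 0.57 (SD over 32 probes), and upper probes of the other plates of set TA averaged 1.96 ± 0.59 (SD over 1920 probes). Upper probes are cut at 0.98 in either place, which narrows any difference in height.

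Plate TA41 held 9 of the 32 upper members, in 2 islands 4 wells apart. In TA41C03 to TA41C07 the ratios of replicate 1 were 1.66, 1.89, 2.24, 3.27 and 2.73, and those of replicate 2 were 1.87, 1.87, 2.44, 2.76 and 2.58. The values climbed along the order to TA41C06, the second highest member at 3.02 ± 0.36 (SD, n = 2), and the well after the island was back at -0.22. In TA41B07 to TA41B10, replicate 1 had 1.50, 1.15, 1.88 and 3.16, and replicate 2 had 2.08, 1.30, 1.85 and 2.42. The 4 wells between both islands averaged 0.19 in replicate 1 and 0.17 in replicate 2, above the surrounding low level.

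Plate TA48 held 7 upper members. In TA48C07 to TA48C10, replicate 1 had 1.42, 1.95, 3.29 and 3.38, and replicate 2 had 1.21, 1.78, 2.80 and 2.63. TA48C09 was the highest member, at 3.04 ± 0.35 (SD, n = 2), and ranked 120th from the top of all probes. The next well, TA48C11, had a mean of -0.26, so the ratio dropped by 3.26 within 1 well, the steepest end of any island here. A second island ran across the plate boundary, from TA47H10 to TA48A01, with 1.52, 1.84, 1.75 and 1.50 in replicate 1 and 1.40, 1.69, 1.53 and 1.08 in replicate 2. It decayed slowly: the well after it had a mean of 0.82, and the single upper well TA48A07 followed at 1.39 in replicate 1 and 0.76 in replicate 2.

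The other islands were shorter or stood alone in low surroundings. TA51D06 to TA51D09 had 1.95, 2.87, 1.92 and 1.85 in replicate 1 and 1.95, 2.65, 1.28 and 1.28 in replicate 2, between wells at -0.12 and -0.22. TA37 held a pair at TA37B03 to TA37B04, with means of 1.69 in replicate 1 and 1.71 in replicate 2, and another at TA37C10 to TA37C11, with 2.01 and 1.79. TA39C09 to TA39C10 averaged 1.85 in replicate 1 and 1.42 in replicate 2, and TA46B11 to TA46B12 averaged 1.87 and 1.77. These last pairs each adjoin a well that was not analysed here or has no value, so their lengths are lower limits. The single wells TA42E03 (1.28 in replicate 1 and 0.92 in replicate 2) and TA48G05 (1.69 in both) complete the set.

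**Figure D3:**
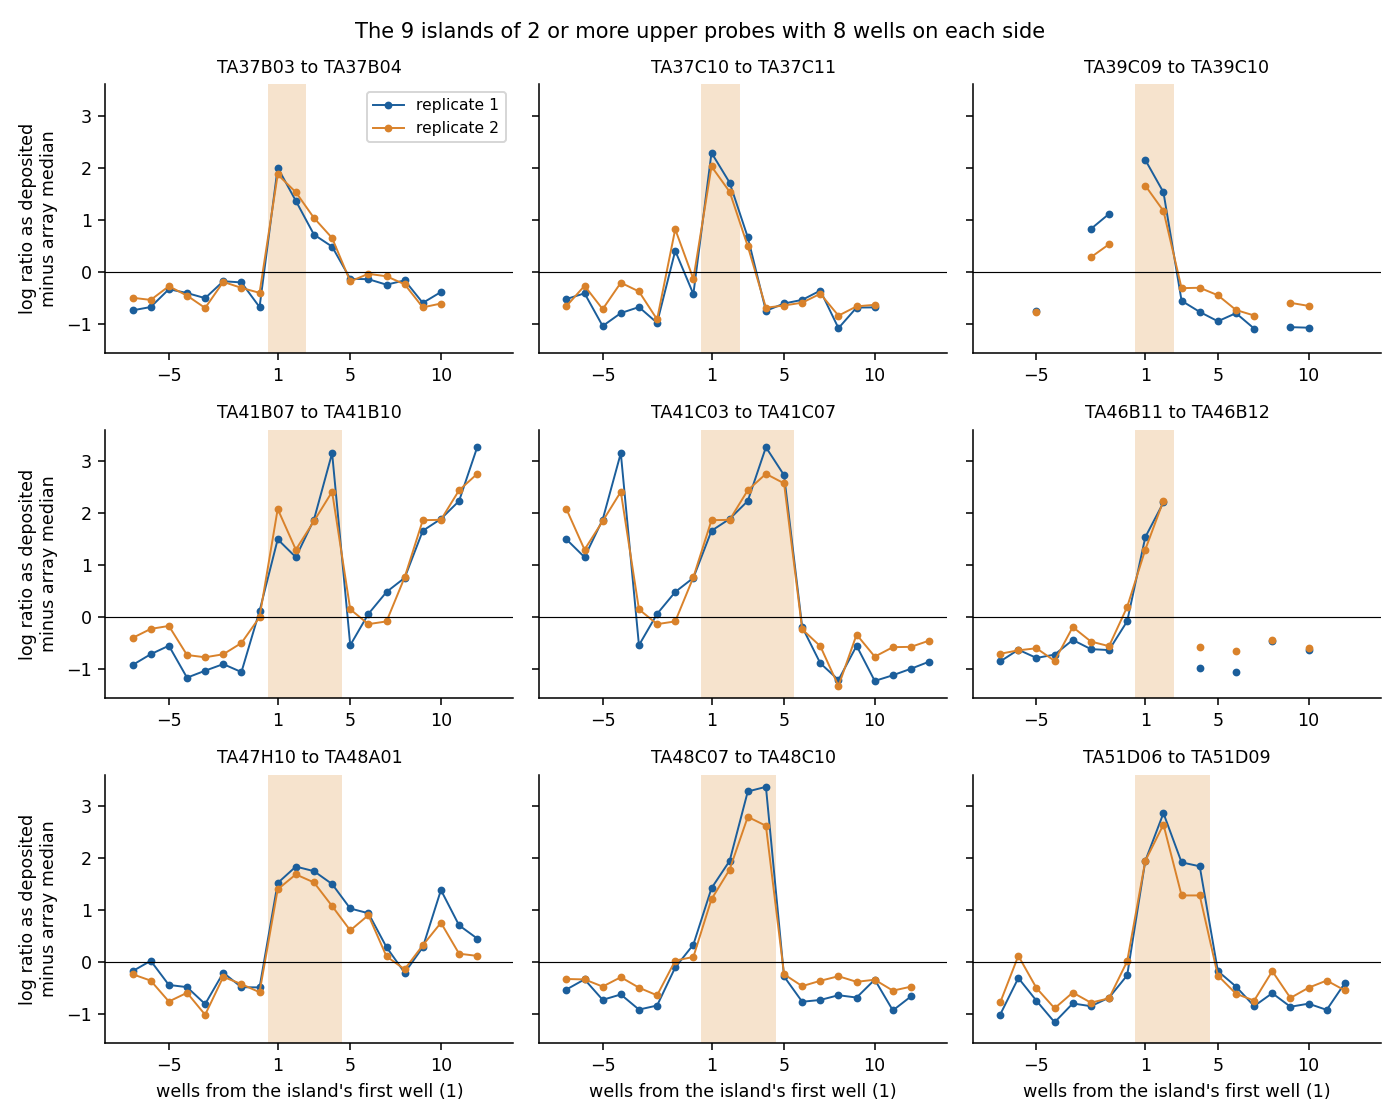
Log ratio minus the array median (y axis) against the well position counted from the first well of each island (x axis), for the 9 islands of 2 or more upper probes with 8 wells on each side, replicate 1 in blue and replicate 2 in orange. Shading marks the island, and gaps in the lines are wells that have no value or were not analysed here. Both replicates trace the same outline, and in several islands the ratio climbs over some wells and drops within 1 well on the opposite side.

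The islands were not symmetric. Both neighbouring wells were measured for 7 of the 9, and the step out of the island was larger at its beginning in 4 and at its end in 3. Steps ran from 0.47 to 3.26, and 8 of the 14 neighbouring wells were below 0. Over all 12 islands, single wells included, the median ratio was -0.16 at 1 well from an end (22 wells) and -0.45 at 5 wells (20 wells). Upper wells at these distances, such as those of a nearby island, were left out, so both medians cover other wells only. A well counted at 5 wells from an island can still lie directly beside another, as TA48A02 and TA48A06 do. Of the 15 members in neither population, 5 lay directly beside an upper member.

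Between the islands the low level ran for long distances. From TA42E04 to TA46B10, 354 members followed each other without an upper probe, with means of -0.74 in replicate 1 and -0.43 in replicate 2. From TA48G06 to TA51D05 there were 252, with -0.69 and -0.46. Of the 14 runs of 100 or more probes without an upper probe in the series, 6 lay in the stretch, and they held 1150 members (85.9%). The plates were chosen for few high probes, so nothing is read from this share. The runs TA37C12 to TA39C07 and TA39C11 to TA41B06 cross wells of TA38 or TA39 that were not analysed here. The block is the longest low one only when its interruptions are counted in. The longest run without any upper probe was TC13B12 to TC22C09, with 488 listed probes at -0.60 in replicate 1 and -0.31 in replicate 2, although plate numbers between TC13 and TC17 are skipped within it.

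Level within the low runs was not uniform. Of the 107 plate rows without an upper member, 106 had a mean under 0 in both replicates. Rows of TA38 and TA45 were grouped with their values known. On TA38, which had no upper probe, the 36 probes of rows A to C averaged -0.85 in replicate 1 and -0.52 in replicate 2. The 26 probes of rows D to H averaged -0.47 and -0.10. Row E, with only 2 probes, did not share that rise, at -0.93 and -0.46. On TA45 the 60 probes of rows A to E averaged -0.88 and -0.53, and the 36 of rows F to H averaged -0.49 and -0.42. All 9 plate rows with a mean over 0 held an upper member. Both counts of rows follow largely from the choice of low plates, so nothing is read from them.

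The interrupting plates differed in their low wells. The lower-population probes of TA41 averaged -0.81 in replicate 1 and -0.42 in replicate 2, inside the range of the other low plates, so its raised mean came with its 9 upper wells. Those of TA48 averaged -0.45 and -0.33, above each of the other 14 plates of the stretch, which ran from -0.93 to -0.64 in replicate 1 and from -0.51 to -0.37 in replicate 2. On the 16 nearest plates outside the stretch, the same mean had a median of -0.46 in replicate 1 and -0.37 in replicate 2. In replicate 1 TA48 was nearer to that median than any other plate of the stretch, and in replicate 2 TA38 (-0.37) and TA43 (-0.39) were nearer.

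**Figure D4:**
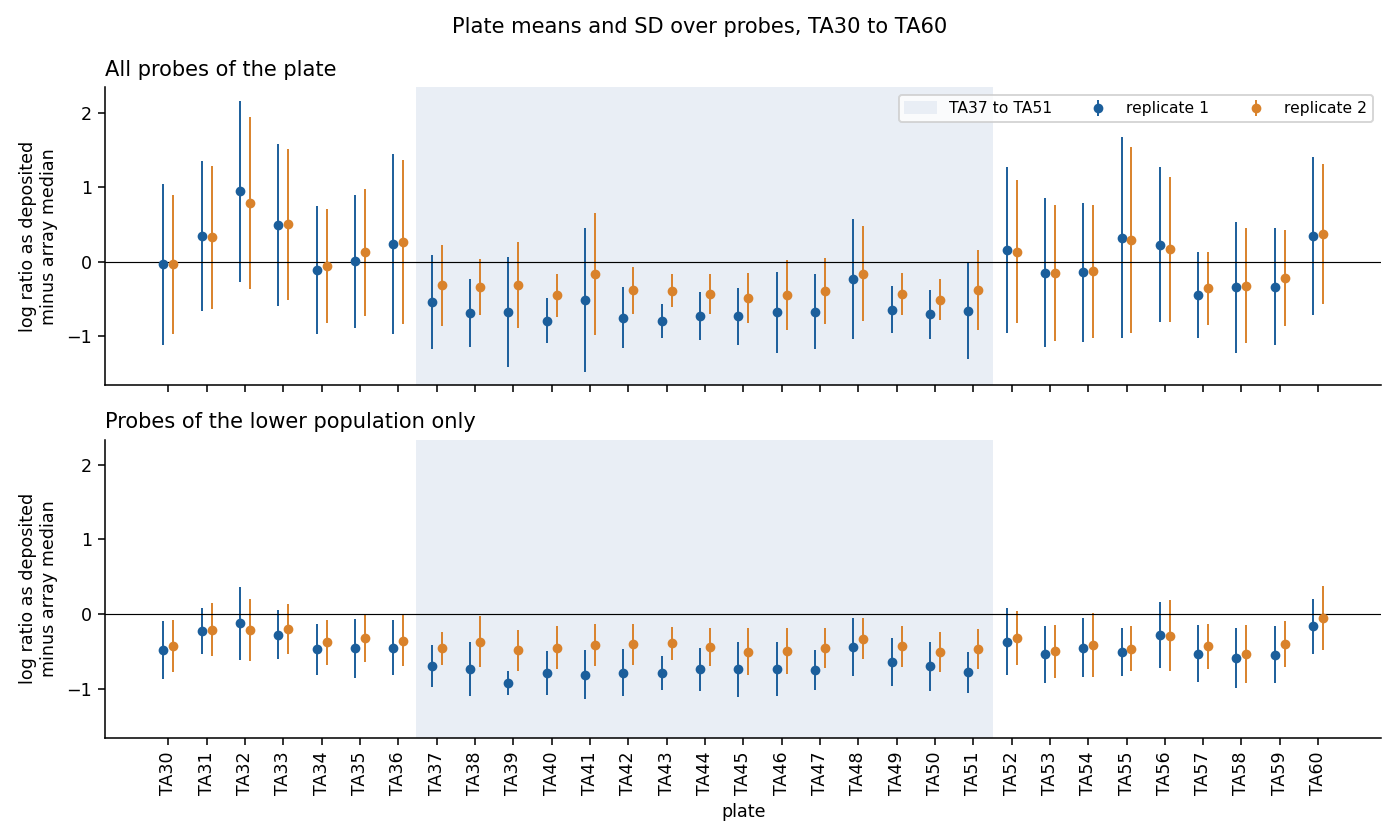
Mean log ratio minus the array median for each plate from TA30 to TA60, over all probes (above) and over the lower population alone (below), in replicate 1 (blue) and replicate 2 (orange). Bars are SDs over probes and shading marks TA37 to TA51. In the lower panel replicate 1 lies between -0.93 and -0.64 throughout the shaded plates except TA48, at -0.45.

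Over the lower population, the stretch averaged -0.73 in replicate 1 and -0.44 in replicate 2. The same means were -0.38 and -0.31 on TA30 to TA36, and -0.28 and -0.26 on TA52 to TA99. The direction was shared by both replicates, but the gap to TA52 to TA99 was much wider in replicate 1. The other low blocks of the series resembled the stretch in part. TC17 to TC30, with 11 upper probes among 1133, had a lower-population mean of -0.66 in replicate 1 and -0.34 in replicate 2. TA18 to TA29, with 142 upper probes among 1069, had -0.57 and -0.43.

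The replicates differed by more in the stretch than over all other probes as a whole. Replicate 1 minus replicate 2 averaged -0.27 over the members (SD over probes 0.28), against 0.05 over all other probes. Of the members, 1117 (83.5%) were lower in replicate 1, against 41.9% of all other probes and 44.5% of all probes. All 15 plate means were lower in replicate 1, with differences from -0.40 on TA43 to -0.07 on TA48, while the 16 nearest plates outside ran from -0.12 to 0.15. The first plate, TA37, had -0.22. From TA38 to TA43 the plate means of the difference lay between -0.40 and -0.34, and from TA44 to TA51, apart from TA48, between -0.29 and -0.19. Of the other low blocks, TC17 to TC30 had a difference of -0.32 and TA18 to TA29 one of -0.07. Lower in replicate 1 were 89.9% of the probes of TC17 to TC30 and 61.3% of those of TA18 to TA29. Upper members went the other way, with 26 of 32 higher in replicate 1 and a mean difference of 0.21, as upper probes did elsewhere in set TA (0.21). There is 1 such difference per probe and no further replicate, so it has no test.

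**Figure D5:**
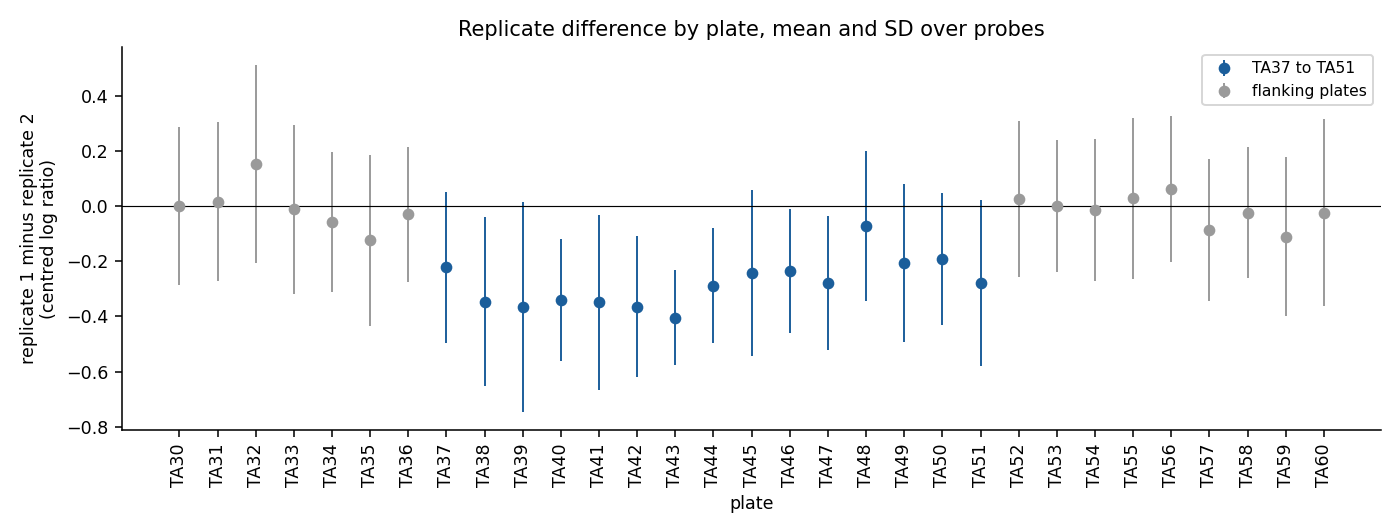
Replicate 1 minus replicate 2 of the centred log ratio (y axis) by plate from TA30 to TA60, with the stretch in blue and flanking plates in grey. Points are means and bars SDs over the probes of a plate. All 15 blue points lie below 0, with TA48 nearest to it at -0.07.

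At the same mean ratio the difference was still larger in the stretch. Probes were placed in bins 0.25 wide, and 6 bins held 20 or more members, 1269 in all. In 5 of these 6 the members had the lower replicate difference, and members minus others reached -0.28 between -0.5 and -0.25. In the bin from 0 to 0.25 it was 0.01. Over the 6 bins, weighted by members, it was -0.23. After quantile normalization, which gives both replicates the same distribution, the members' difference was -0.19. Whether a plate batch or the chromatin samples moved with it was not tested.

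Within the stretch the replicates ranked the members only partly alike, with lower correlations than over all probes. The members spanned a narrower range, and r depends on that range: the SD of the mean ratio was 0.49, against 1.09 over all probes. The SD of the replicate difference was 0.28 over the members and 0.30 over all probes. Neighbouring members are not independent. Over the 1338 members Pearson r between replicates was 0.867 and Spearman rho 0.626. Over all probes they were 0.968 and 0.930. Among the lower-population members alone Pearson r was 0.638, and among lower-population probes on the other plates of set TA it was 0.780. The SDs of their mean ratios were 0.27 and 0.36.

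Neighbouring wells were alike along rows. Over 1294 pairs of consecutive wells, the mean ratios of members correlated with r = 0.637, which is a description, since neighbours share a plate and may share printing. On the other plates of set TA it was higher, at 0.726 over 7846 pairs. In the stretch r was 0.422 at 2 wells apart and 0.119 at 5. For consecutive wells with plate means taken off it was 0.614. In the lower population alone it was 0.284 over 1235 pairs, against 0.446 over 4777 pairs on the other plates of set TA. With all members ordered down columns in place of along rows r was 0.0676. Consecutive wells of that order lie mostly 12 apart along rows, where r was 0.0666, so it is no separate check. The replicate difference also ran along the order, with r = 0.532 for consecutive wells and 0.0981 at 12 wells apart. On the other plates of set TA the same values were 0.376 and 0.119.

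The stretch was not fully covered by values. Its 15 plates have 1440 wells, of which 1338 had a value, 14 were listed with no value and 88 were not analysed here. All 88 belong to TA38 (34) and TA39 (54), so the distance between neighbouring members is uncertain there.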

How the data were processed

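The authors' deposited table holds 1 log ratio of the ChIP and input channels per probe and array, in a unit recorded as other, because the sources used here state no base, direction, background correction or normalization for it. The deposited medians were -1.22 in replicate 1 and -1.10 in replicate 2. Of 21800 identifiers, 115 have no value. Columns of a dye-swap pair were identical and counted once. Each replicate was centred on its median over all probes. The mixture was fitted with scikit-learn 1.9.0 to the mean of both replicates. An intercept per probe was fitted over all 21685 probes with lmFit and eBayes (limma 3.58.1 under R 4.3.3) and tested two-sided, with 1 residual and 23.1 prior degrees of freedom. These steps were tested on simulated data. An island is a run of upper members at consecutive wells, ended also by a well that has no value or was not analysed here. Single probes named for their value are the 2 highest and 2 lowest members. Plates, islands, single upper wells and edges are given by well. Alternatives covered centring, quantile normalization, mixture settings, thresholds, order, plates TA41 and TA48, and single replicates. The members, plates and rules were chosen with earlier results of these data known, so no pattern here is independent support for the choice.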

Additional observations from a re-analysis of the deposited data

How the results depend on the processing

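Under most alternatives the values moved by less than the SD between replicates, or the counts stayed within 1.5 times. For the replicate difference the SD over plate means was used in its place. Leaving out a replicate always moves a mean of both by less than their SD. For the mean ratio, the difference from other probes and the named probes, single replicates are therefore no check. The mean ratio of the stretch was -1.68 without centring and -0.21 centred on the lower component, because the zero point moves. Single replicates gave -0.65 to -0.38. The difference from all other probes was -0.65 between medians, and -1.14 to -0.82 in single replicates. Upper members numbered 47 at a posterior above 0.5, 15 with the upper of 3 components and 16 without TA41 and TA48, and 31 to 32 in single replicates. Islands numbered 12 at a posterior above 0.5, 4 with 3 components, 2 in column order and 9 in each single replicate. With a minimum size of 0.5 (treat), 230 members were called below and 34 above (4.86% and 30.8% of all probes), and without centring 23 were above (20.9% of all probes). The correlation of consecutive members was 0.550 without TA41 and TA48, 0.284 in the lower population, 0.0676 in column order and 0.592 to 0.655 in single replicates. Column order mostly pairs wells 12 apart along rows, so that value repeats the decay with distance. The 4 named probes kept their sign throughout. Restricting the mean and the replicate difference to the lower population was chosen after seeing the data. The calls were not computed in single replicates, where no spread is left to estimate.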

Other observations

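In 4 members the replicates lay more than 1 apart, as in 43 of all 21685 probes. TA39A03 had 0.21 in replicate 1 and 1.29 in replicate 2. TA41A03, TA41A05 and TA41F07 were each lower in replicate 1, with differences of -1.04, -1.04 and -1.17. These wells are named because their values were seen. On TA46, 13 wells were listed without a value, and all 13 were in odd-numbered columns.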
